A study of Arabidopsis thaliana with 4 samples.

Results

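The 10 Arabidopsis thaliana genes described here make, move and sense salicylic acid: ICS1 (AT1G74710), ICS2 (AT1G18870), EDS5 (AT4G39030), PBS3 (AT5G13320), CBP60G (AT5G26920), SARD1 (AT1G73805), EDS1 (AT3G48090), PAD4 (AT3G52430), SAG101 (AT5G14930) and NPR1 (AT1G64280). They were taken by identifier from a count table of 27554 genes, and all 10 were found and passed the filter on low counts. The values are ribosome footprint counts, the number of short mRNA pieces protected by ribosomes that fell on each gene, in seedlings aged 6 days labelled as whole. Of the 4 libraries, 2 are labelled wild type (WT) and 2 line 5, which overexpresses ClpD, a Clp ATPase of the chloroplast, in the WT background. The series asks how plants respond when unimported ClpD precursor builds up. The promoter of the transgene is given only as constitutive, line 5 is a single line, and whether libraries of the same group are separate cultures is not stated in the labels. Differences of line 5 other than ClpD, such as its insertion site, cannot be told apart from ClpD itself, and the p-values rest on a spread between samples that may be technical.

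Salicylic acid is a plant defence hormone. Most of it is made in the chloroplast from chorismate, which ICS1 and ICS2 convert to isochorismate. EDS5 exports isochorismate to the cytosol, and PBS3 joins it to glutamate, giving a conjugate that breaks down to salicylic acid. CBP60G and SARD1 are transcription factors that bind the ICS1 promoter. EDS1 forms separate heterodimers with PAD4 and with SAG101, which relay signals of immune receptors, and NPR1 is a salicylic acid receptor and transcriptional coactivator. Because synthesis starts in the chloroplast, the first enzymes and the transporter are themselves imported or membrane-inserted chloroplast proteins.

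The WT libraries held 29772406 and 27260818 counts in total, fewer than the line 5 libraries with 42291527 and 38990360. The 10 genes together held 4098 to 8272 counts per library. Levels are given as CPM, counts scaled to a common library total with edgeR's TMM factors, which assume that most genes do not change. ClpD (ERD1) had 167 and 175 CPM in WT and 3112 and 3302 CPM in line 5, so the libraries match their labels. Footprints reflect both mRNA amount and ribosome occupancy, which these libraries do not separate, and in whole tissue fewer cells of a type cannot be told apart from less RNA per cell. Against the label of whole seedlings, markers of root hairs (EXPA7 and COBL9, listed as SHV2), of the endodermal barrier (CASP1 and CASP2) and of root iron uptake (IRT1) had 0 to 8 counts in each library. The other 3 root markers were detected, SCR with 582 to 735 counts, PHO1 with 161 to 284 and SHR with 141 to 283. SCR and PHO1 fell, with log2 fold changes of -0.92 (SE 0.140) and -1.17 (SE 0.205), and SHR was not called. The leaf genes CAB1 and RBCS1A were abundant, and the summed level of 4 shoot markers was 28401 and 29980 CPM in WT and 23005 and 21720 CPM in line 5. The summed level of the 8 root markers was 42.6 and 43.0 CPM in WT and 26.1 and 22.9 CPM in line 5. Most of this sum was SCR alone, with 25.9 and 29.8 CPM in WT and 15.9 and 13.6 CPM in line 5, so it does not stand for the root markers as a set. Of 2 seed storage markers, CRA1 had 17.8 and 18.1 CPM in WT and 6.73 and 1.35 CPM in line 5. Its line 5 libraries differed 4.97-fold, and its log2 fold change of -2.15 (SE 0.678) was not called. SESA1 had 0.741 and 1.98 CPM in WT and 1.03 and 1.45 CPM in line 5, overlapping groups. The senescence marker SAG12 had 0 counts in all 4 libraries. The part of tissue makeup in the results below was not tested.

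SAG101 rose and ICS1 fell in line 5, and the other 8 genes were not called. A call is an adjusted p under 0.05 in edgeR's quasi-likelihood test, with Benjamini-Hochberg adjustment over the 18737 genes that passed the filter. The background is 6.72% of tested genes called higher and 8.72% called lower, so 1 of 10 in each direction is near what the whole table shows. The median log2 fold change was 0.20 over the 10 genes and 0.0023 over all genes tested. The libraries of the groups did not overlap for 4 genes higher in line 5 (SAG101, PAD4, CBP60G and NPR1) and 3 genes lower (ICS1, ICS2 and EDS1), against 34.7% and 33.4% of all genes tested, so this count too is near the background. DESeq2, with 7.82% of genes called higher and 11.2% lower, called SAG101, ICS1 and also ICS2. With scaling by total count in place of TMM the median of all genes was 0.24 higher on the log2 scale. Under it 3355 genes were called higher and 1226 lower, against 1260 and 1633 with TMM. The members called under it were SAG101, PAD4, NPR1 and CBP60G higher and ICS1 lower. SAG101 and ICS1 kept their direction with either WT library left out, which leaves 1 library in that group. The spread between the WT libraries then does not enter the test. Without WT replicate 1 or 2 the log2 fold change was 1.55 and 1.63 for SAG101 and -0.81 and -1.05 for ICS1. With either line 5 library left out, no member was called, and over all genes at most 37 were called higher and 14 lower.

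**Figure D1:**
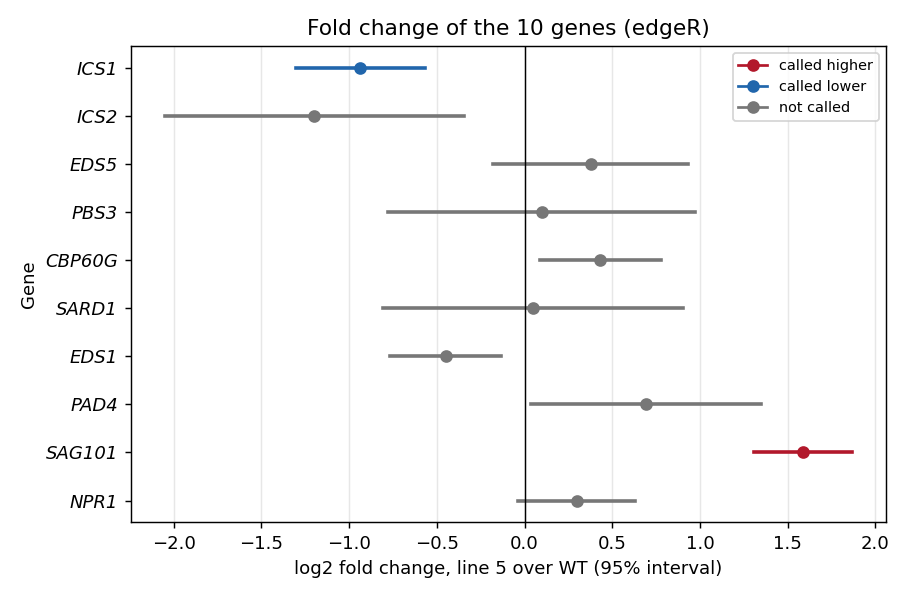
Log2 fold change of line 5 over WT for each of the 10 genes, ordered by role, with the 95% interval from edgeR as a bar; colour marks genes called higher or lower. Only the intervals of SAG101 and ICS1 belong to called genes, and those of EDS5, PBS3, SARD1 and NPR1 include 0.

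Among the synthesis genes, ICS1 fell, and ICS2 was lower in both line 5 libraries without being called. ICS1, the main isochorismate synthase of induced salicylic acid synthesis, had 26.4 and 22.5 CPM in WT and 13.7 and 11.9 CPM in line 5. The groups did not overlap, and the 2 libraries of a group were within 1.18-fold of each other. The level fell 1.91-fold (log2 fold change -0.94, SE 0.144, edgeR, adjusted p = 0.0249). Without replicate 1 or 2 of line 5 the log2 fold change was -1.04 and -0.83 and the call was lost (edgeR, adjusted p = 0.103 and 0.201).

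ICS2, the second isochorismate synthase, which is known to contribute little to salicylic acid but to be able to serve phylloquinone synthesis, had 11.0 and 6.27 CPM in WT and 3.10 and 4.44 CPM in line 5. All line 5 values lay below all WT values, although the WT libraries themselves differed 1.75-fold. Its log2 fold change of -1.20 (SE 0.333, 95% interval -2.05 to -0.34) was larger in size than that of ICS1 but less precise, and it was not called (edgeR, adjusted p = 0.0697). DESeq2 called it (adjusted p = 0.0105), and so did edgeR with no filter on low counts (adjusted p = 0.0482). The estimate was -0.74 without WT replicate 1, -0.96 without line 5 replicate 1, and -1.54 without WT replicate 2.

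Together the ICS1 and ICS2 footprints came to 37.4 and 28.7 CPM in WT and 16.8 and 16.3 CPM in line 5. The share of ICS1 in the counts of this pair was 70.7% (95% exact binomial interval 67.8 to 73.4) and 78.2% (74.9 to 81.2) in the WT libraries. In line 5 it was 81.5% (78.6 to 84.2) and 72.8% (69.3 to 76.1). These shares overlap between the groups, so any difference in the balance of the isochorismate synthases was within the spread of replicates. Intervals of this kind cover counting error only.

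Of the steps after isochorismate neither gene was called, and in both the groups overlapped. EDS5, the envelope transporter, had 8.18 and 6.60 CPM in WT and 11.2 and 8.06 CPM in line 5, with the lower line 5 library just under the higher WT library. Its log2 fold change was 0.38 (SE 0.217, 95% interval -0.18 to 0.93; edgeR, adjusted p = 0.271). PBS3, the amido synthetase that forms the isochorismate-glutamate conjugate, was counted 16 and 13 times in WT and 25 and 27 times in line 5. That is 0.564 and 0.537 CPM in WT and 0.550 and 0.631 CPM in line 5, overlapping groups at the lowest level of the 10 genes. Its log2 fold change was 0.098 (SE 0.342), and at this depth the 95% interval of the fold ran from 0.584 to 1.96.

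**Figure D2:**
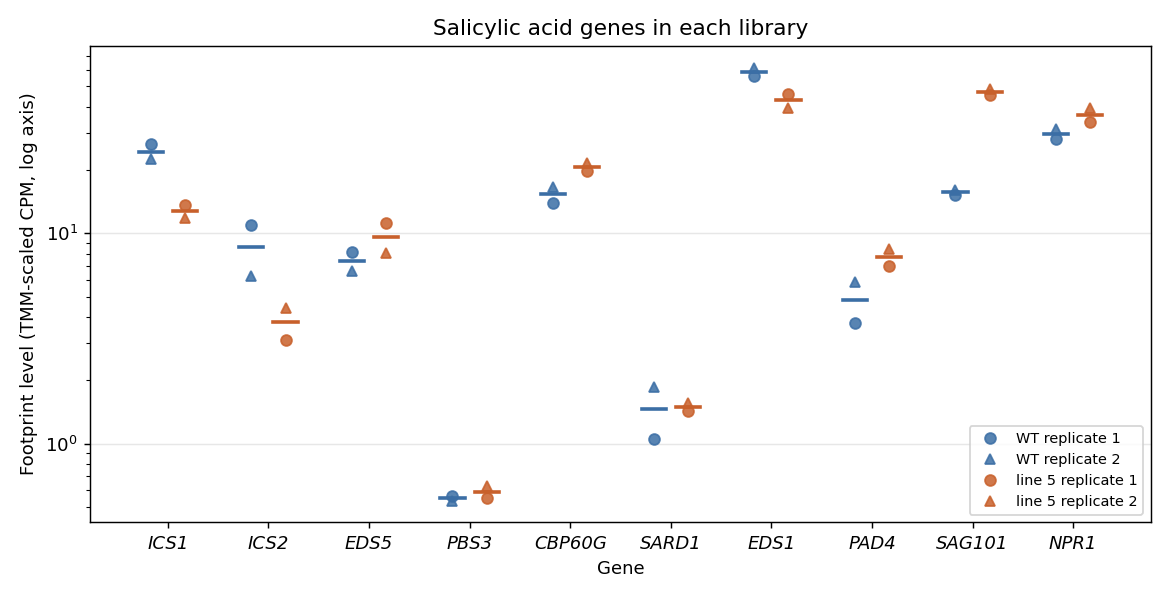
TMM-scaled CPM of each gene on a log axis, with circles for replicate 1 and triangles for replicate 2 of WT (blue) and line 5 (orange) and a short line at each group mean. SAG101 stands at 45.4 and 48.6 CPM in line 5 against 15.2 and 16.1 in WT, while both ICS genes lie lower in line 5.

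CBP60G and SARD1, the related activators of ICS1, were not called. CBP60G, whose protein binds calmodulin, had 14.0 and 16.7 CPM in WT and 19.9 and 21.5 CPM in line 5. The groups did not overlap, but the log2 fold change of 0.43 (SE 0.135, 95% interval 0.087 to 0.78) was not called (edgeR, adjusted p = 0.0890). It was called at 0.68 with total count scaling (edgeR, adjusted p = 0.0268). The estimate was 0.57 without WT replicate 2 and 0.31 without WT replicate 1.

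SARD1, which acts in parallel with CBP60G without needing calmodulin, was counted 30 and 45 times in WT and 65 and 67 times in line 5. Scaled, these were 1.06 and 1.86 CPM in WT and 1.43 and 1.56 CPM in line 5, so both line 5 values lay between the WT values. The log2 fold change of 0.05 (SE 0.334, 95% interval -0.81 to 0.91) had no settled direction: it was 0.50 without WT replicate 2 and -0.31 without WT replicate 1. CBP60G held 93.0% and 90.0% of the counts of the pair in WT and 93.3% and 93.2% in line 5.

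In the EDS1 family SAG101 rose, PAD4 was higher and EDS1 lower in both line 5 libraries, and neither of these 2 was called. SAG101, a lipase-like partner of EDS1 first found as a leaf senescence gene, was counted 432 and 390 times in WT and 2064 and 2082 times in line 5. Its level went from 15.2 and 16.1 CPM to 45.4 and 48.6 CPM, and libraries of a group were within 1.07-fold of each other. It rose 3.0-fold (log2 fold change 1.59, SE 0.109, 95% interval 1.31 to 1.86, edgeR, adjusted p = 0.00938), rank 415 of the 18737 fold changes counted from the top. Without replicate 1 or 2 of line 5 the log2 fold change was 1.64 and 1.54, and the call was lost (edgeR, adjusted p = 0.0671 and 0.128). SAG12, the usual marker of leaf senescence, was at 0 in the same libraries.

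PAD4, the other lipase-like partner, had 3.74 and 5.86 CPM in WT and 7.02 and 8.43 CPM in line 5. The groups did not overlap, and the log2 fold change of 0.69 (SE 0.256, 95% interval 0.036 to 1.35) was not called (edgeR, adjusted p = 0.125). Leaving out WT replicate 1 gave 0.40, and leaving out WT replicate 2 gave 1.05. EDS1, the shared partner, had 55.7 and 61.3 CPM in WT and 46.1 and 39.6 CPM in line 5, lower in both line 5 libraries. Its log2 fold change of -0.45 (SE 0.123, 95% interval -0.77 to -0.13) was not called (edgeR, adjusted p = 0.0679), and it was -0.52 without WT replicate 1. It was -0.21 with total count scaling.

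Within a library the balance of EDS1 and its partners therefore differed between the groups in these 4 libraries, whatever scaling between libraries is used. Of the counts of SAG101 and EDS1 together, SAG101 held 21.5% (95% exact interval 19.7 to 23.3) and 20.8% (19.0 to 22.7) in WT. In line 5 its share was 49.6% (48.1 to 51.2) and 55.1% (53.5 to 56.7). PAD4 held 6.29% and 8.72% of the counts of PAD4 and EDS1 in WT and 13.2% and 17.5% in line 5. The groups did not overlap in either share, and in that of SAG101 the gap was many times the spread of replicates. In that of PAD4 the gap, from 8.72% to 13.2%, was about the size of the spread within line 5. Groups that do not overlap were common among single genes, at 34.7% higher and 33.4% lower of all tested. With 2 libraries against 2, the smallest two-sided p an exact permutation test of a share can give is 0.333.

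AT3G48080, the gene next to EDS1 in the reference and annotated like it as an alpha/beta-hydrolase, was counted 0 and 3 times in WT and 2 and 6 times in line 5. How reads of similar gene copies were divided is not given in the sources used here. Of the counts listed for the pair, EDS1 held 99.6% or more in each library.

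NPR1, the receptor and coactivator, had 28.1 and 31.4 CPM in WT and 33.7 and 39.4 CPM in line 5. Both line 5 values exceeded both WT values. The gap between the groups, from 31.4 to 33.7 CPM, was smaller than the difference within either group (1.12-fold in WT and 1.17-fold in line 5). The log2 fold change of 0.30 (SE 0.131, 95% interval -0.038 to 0.63) was not called (edgeR, adjusted p = 0.174). With total count scaling it was 0.54 and called (edgeR, adjusted p = 0.0422). ICS2, EDS5, SARD1 and NPR1 overlap another annotated gene in the reference, and since use of strand in counting is not stated, their counts may include reads of that gene.

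Levels of different genes can be set side by side only per length, for which the authors' deposited FPKM values were used. In WT the order ran from EDS1 (29.6 and 30.9 FPKM) through NPR1 (14.8 and 15.4) and ICS1 (14.4 and 11.5) to SAG101 (8.81 and 8.69) and CBP60G (7.73 and 8.59). ICS2 (6.44 and 3.46 FPKM) and EDS5 (4.68 and 3.53) overlapped, PAD4 followed (2.15 and 3.14), and SARD1 (0.73 and 1.19) and PBS3 (0.31 and 0.27) were lowest. In line 5 SAG101 came first (29.7 and 32.4 FPKM), above EDS1 (27.9 and 24.1), NPR1 (20.0 and 23.9) and CBP60G (12.5 and 13.7). ICS1 (8.44 and 7.48 FPKM) came next, then EDS5 (7.20 and 5.32) and PAD4 (4.55 and 5.58), which overlapped, and ICS2 (2.06 and 2.93). SARD1 (1.11 and 1.24 FPKM) and PBS3 (0.34 and 0.39) stayed last. The level of SAG101 per length was 0.298 and 0.282 times that of EDS1 in WT and 1.06 and 1.35 times in line 5. ICS1 stood above CBP60G in both WT libraries and below it in both line 5 libraries.

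**Figure D3:**
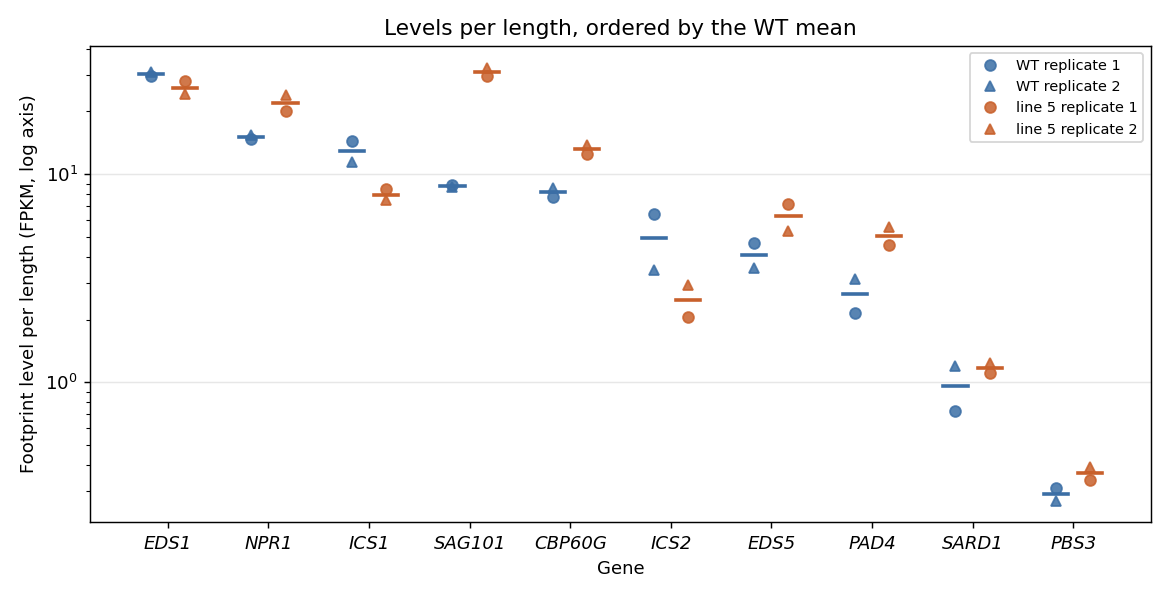
Deposited FPKM of each gene on a log axis, ordered by the WT mean from left to right, with circles for replicate 1 and triangles for replicate 2 of WT (blue) and line 5 (orange). SAG101 lies below EDS1, NPR1 and ICS1 in WT and above all of them in line 5, at 29.7 and 32.4 FPKM.

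The rest of the pathway was described by 7 lists with 77 genes, of which 63 passed the filter. Of these, 2 rose and 9 fell, 3.17% and 14.3% against the background of 6.72% and 8.72%, with a median log2 fold change of -0.16. No call among the 63 held with either line 5 library left out. The number called moved with the library dropped, as it did over all genes tested. Among 8 other synthesis genes, 1 rose and 2 fell, 12.5% and 25.0% against the same background. PAL1 and PAL4, phenylalanine ammonia-lyases of the phenylpropanoid route that can also feed salicylic acid, had log2 fold changes of -1.23 and -1.42 with SEs of 0.237 and 0.184. PAL1 had 423 and 609 CPM in WT and 253 and 187 CPM in line 5. The other PAL genes were not called by edgeR and differed in direction. PAL2 had -0.90 (SE 0.304) and was called by DESeq2 (adjusted p = 0.0174), and PAL3 had 0.39 (SE 0.232). AIM1, a peroxisomal beta-oxidation enzyme whose rice relative is needed for salicylic acid synthesis, had 84.5 and 78.8 CPM in WT and 112 and 135 CPM in line 5, a 1.51-fold rise that was not called without WT replicate 2 (edgeR, adjusted p = 0.0573). EMB1144, a chorismate synthase that supplies the precursor, stood at -0.47 on the log2 scale (SE 0.148), which was no call.

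Of 7 tested genes that modify salicylic acid, 2 fell and 0 rose, 28.6% and 0% against the background of 8.72% and 6.72%. DMR6, a hydroxylase that turns salicylic acid over, had 19.1 and 12.6 CPM in WT and 3.17 and 3.06 CPM in line 5. It fell by 2.35 on the log2 scale (SE 0.240, edgeR, adjusted p = 0.0148), with no overlap of the groups. MES9, an esterase that releases salicylic acid from its methyl ester, had 14.5 and 13.4 CPM in WT and 4.20 and 2.34 CPM in line 5 and fell by 2.09 (SE 0.293). The glucosyltransferase gene UGT74F1 stood at -0.43 (SE 0.379), and UGT76B1 was counted 2 and 9 times in WT and 30 and 23 times in line 5; neither was called.

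Among 13 tested receptors, TGA factors and other NPR1 partners, 1 rose and 0 fell. These are 7.69% and 0% against the background of 6.72% and 8.72%, so the share that rose is near the background. TGA3, a bZIP factor that works with NPR1, had 7.72 and 5.82 CPM in WT and 13.4 and 20.4 CPM in line 5 (log2 fold change 1.32, SE 0.261, edgeR, adjusted p = 0.0366). The estimate was 0.99 without line 5 replicate 2. The receptors NPR3 and NPR4, which repress transcription where NPR1 activates it, had log2 fold changes of -0.60 (SE 0.192) and -0.56 (SE 0.283), and the NPR1-interacting NIMIN-3 had -0.76 (SE 0.319). These 3 were not called with all libraries. They stood at -0.83, -0.91 and -1.09 without WT replicate 1 and at -0.33, -0.12 and -0.34 without WT replicate 2. Their values thus rest on which WT library is kept.

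Of 18 tested CBP60 family members and other regulators of ICS1, 2 fell and 0 rose. These are 11.1% and 0% against the background of 8.72% and 6.72%, so the share that fell is near the background. AT5G62570, the reference's CBP60a, a relative of CBP60G known to restrain ICS1, had 43.2 and 40.3 CPM in WT and 18.8 and 18.5 CPM in line 5 and fell by 1.16 (SE 0.105) on the log2 scale. RD26, a NAC factor of abscisic acid responses, fell by 2.53 (SE 0.549), but its WT libraries differed 3.11-fold (79.0 and 25.4 CPM against 8.23 and 9.90 CPM in line 5), and the estimate was -1.49 without WT replicate 1. SR1, the reference's CAMTA3 and a repressor of salicylic acid genes, had 0.27 (SE 0.0963), and AT4G25800, annotated as a calmodulin-binding protein, had -0.84 (SE 0.303); neither was called.

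Of 7 tested genes that act with EDS1 or beside it, 1 fell and 0 rose, 14.3% and 0% against the background of 8.72% and 6.72%. The gene that fell was NDR1, a membrane protein needed by coiled-coil immune receptors. It had 18.2 and 16.9 CPM in WT and 10.1 and 10.5 CPM in line 5 (log2 fold change -0.76, SE 0.114, edgeR, adjusted p = 0.0235). The receptor genes AT5G66910, ADR1-L2 and AT5G66900 had 0.39 (SE 0.143), -0.22 (SE 0.169) and 0.087 (SE 0.125) and were not called; with total count scaling ADR1-L2 had 0.024. In the pipecolic acid branch, a parallel route to systemic immunity, ALD1 had 0 to 3 counts and FMO1 0 counts in each library. AT5G52810, the 1 tested gene of that branch, had 0.30 (SE 0.190) and was not called.

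Of the 16 listed response genes 9 were tested, and 2 fell and 0 rose, 22.2% and 0% against the background of 8.72% and 6.72%. The log2 fold change was negative for all 9, with a median of -0.93. DESeq2 called 4 of them lower, where it called 11.2% of all genes lower. PR1, the standard reporter of salicylic acid signalling, had 0 counts in all 4 libraries, which allows up to 0.0660 to 0.124 CPM. PR2, listed as BGL2, was counted 1 and 1 times in WT and 5 and 29 times in line 5, too few to pass the filter. PR5 had 13.8 and 10.7 CPM in WT and 10.7 and 12.3 CPM in line 5, overlapping groups. Of the genes that fell, the TGA-binding glutaredoxin GRX480 went from 5.78 and 9.12 CPM to 2.79 and 2.43 CPM (log2 fold change -1.51, SE 0.270). ACD6, an ankyrin protein that promotes salicylic acid signalling, went from 13.9 and 6.03 CPM to 2.79 and 2.64 CPM and fell by 1.88 (SE 0.416), with -1.15 without WT replicate 1. WRKY53 and WRKY18, defence transcription factors, had -0.43 (SE 0.107) and -0.69 (SE 0.209) and were not called, though DESeq2 called WRKY18 (adjusted p = 0.0230).

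**Figure D4:**
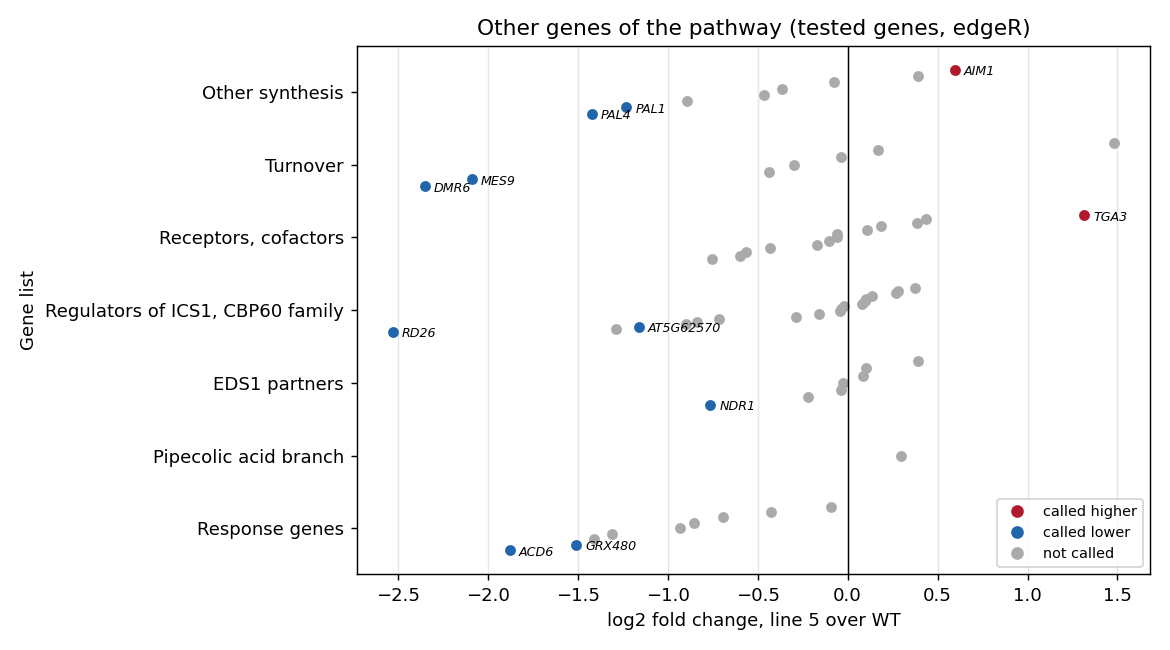
Log2 fold change of line 5 over WT for the 63 tested genes of 7 pathway lists, 1 point a gene, sorted within each list, with called genes coloured and named. The 2 genes called higher are AIM1 and TGA3, and the 9 called lower are spread over 5 of the lists.

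The genes listed directly beside SAG101 on chromosome 5 also had more footprints in line 5, a pattern looked for after its values were seen. Identifiers run along the chromosome, and 5 genes on each side of every member were compared. Beside SAG101, 7 of 10 were tested, 3 rose and 0 fell, where 6.72% and 8.72% of all genes tested did. AT5G14920, annotated as a gibberellin-regulated family protein, had 7.09 and 7.92 CPM in WT and 29.3 and 61.4 CPM in line 5 (log2 fold change 2.60, SE 0.381, edgeR, adjusted p = 0.0233), and 1.97 without line 5 replicate 2. AT5G14940, annotated as a major facilitator protein, and GMII (AT5G14950), a Golgi mannosidase gene, rose with log2 fold changes of 0.90 (SE 0.193) and 0.62 (SE 0.127). DEL2 (AT5G14960), an atypical E2F factor, had 1.38 (SE 0.403) and was not called by edgeR (adjusted p = 0.0778), but was by DESeq2 (adjusted p = 0.0364). The run ended at AT5G14910 on one side (-0.074, SE 0.0928) and AT5G14970 on the other (-0.10, SE 0.107), which had 0.17 and 0.13 with total count scaling. Of these 3 calls edgeR kept only that of AT5G14920 without line 5 replicate 1 and none without line 5 replicate 2, and AT5G14940 was not called without WT replicate 2 (adjusted p = 0.0609).

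Around the other 9 genes, at most 2 neighbours were called in one direction, with 2 to 9 of the 10 tested. Beside ICS1, which fell, 2 of 8 tested genes rose and 0 fell, and beside PBS3 2 of 9 tested genes fell and 0 rose. Over all genes tested 6.72% rose and 8.72% fell, so SAG101 was not the only gene with neighbours called above that share. The genes beside ICS2 and PAD4 included 1 that fell in each case, and none was called beside EDS5, EDS1, NPR1, CBP60G or SARD1, of which only 2 neighbours of NPR1 were tested. Whether neighbouring genes share reads, and the site of the transgene in line 5, were not tested.

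**Figure D5:**
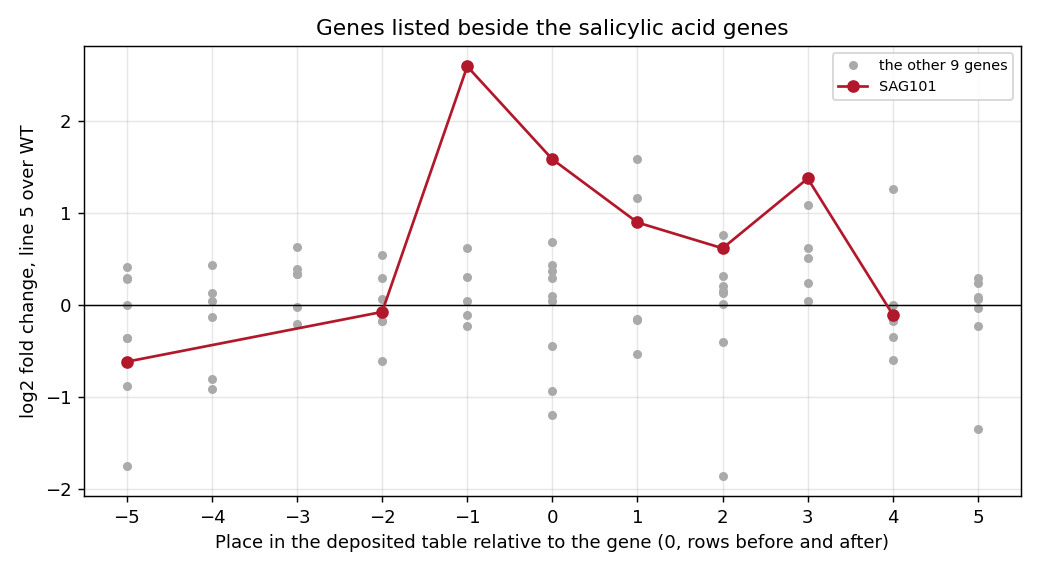
Log2 fold change of line 5 over WT for tested genes up to 5 places before or after each member in identifier order, with the member at 0. The SAG101 series (red, joined) is above 0.6 from place -1 to place 3 and below 0 at the tested places outside it; grey points belong to the other 9 genes.

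The authors' deposited table gives log2 ratios of mean FPKM, which are scaled by library total and so run higher than those after TMM. In the authors' deposited table SAG101 has 1.83 with an FDR of 3.36e-16, ICS1 has -0.70 with 0.000226 and ICS2 has -0.99 with 0.0127. The authors' deposited table lists the other 7 members with an FDR from 0.0837 for EDS1 to 0.978 for SARD1. The submitters' processing notes name DESeq2 among the tools, without stating that it gave those values.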

How the data were processed

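Ribosome footprints were measured in 2 WT and 2 line 5 libraries. The authors deposited 1 table with whole-number counts and FPKM per gene and library, mean FPKM per group, and per gene the log2 ratio of groups with its p-value and FDR, per the file headers; the deposited counts may be rounded estimates. Per the submitters' processing notes fastp, Bowtie2, STAR, RSEM, DESeq2 and the build TAIR10 were used; strand, multi-mapping and versions are not stated there. FPKM was used only to order genes by level.

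From the counts, 5 rows without an identifier (0.0145% to 0.0340% of a library) were dropped. Genes passing filterByExpr (minimum count 10) were tested across all genes with edgeR 4.0.16 in R 4.3.3: TMM, quasi-likelihood fit on group, two-sided, Benjamini-Hochberg over 18737 genes, threshold 0.05. DESeq2 1.42.0, other scalings and filters, a replicate block and each library left out were alternatives, and the code was tested on simulated data. A log2 interval is the estimate with its standard error and the t quantile of the fit. Names are from RefSeq TAIR10.1 (27444 of 27554 identifiers found), with ICS1 listed there as EDS16.

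The members, lists and tests were chosen with earlier results of these data known. All members are named, with up to 4 genes per list of smallest p and NPR3, NPR4, PR1, PR2, PR5 and AT3G48080. ALD1, FMO1, PAL2, PAL3 and the genes beside SAG101 were named after their values were seen.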

Additional observations from a re-analysis of the deposited data

How the results depend on the processing

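The direction of SAG101, ICS1, ICS2, EDS1, PAD4, CBP60G, EDS5 and NPR1 was the same in every alternative run other than the crossed pairing below, for which only calls were computed; SARD1 ranged from -0.31 to 0.50 with a library left out. Members called higher numbered 1, and 4 with total count scaling, a setting chosen after seeing the data; members called lower numbered 1, and 2 with DESeq2 or with no filter. With a library left out these ranged from 0 to 3 and from 0 to 2. Pathway genes called higher numbered 2, 0 with the replicate block and 4 with total count scaling, and 0 to 3 with a library left out; those called lower numbered 9, 4 with the replicate block and 0 to 19. Over all genes the replicate block gave 286 higher and 457 lower and total count scaling 3355 higher, and leaving out a library gave 25 to 2197 higher and 3 to 2904 lower; SAG101 and ICS1 kept their calls in the block. The replicate block ended the calls of TGA3, AIM1, PAL1, RD26, NDR1, GRX480 and ACD6 (edgeR, adjusted p from 0.0602 for NDR1 to 0.0938 for AIM1) and, beside SAG101, of AT5G14940 (0.0938) and GMII (0.0788), but not that of AT5G14920 (0.0384). The deviations of libraries with the same number were only weakly and inversely related (r = -0.119 across genes, which are not independent replicates). With the numbers crossed, a pairing chosen after seeing the data, edgeR called 1 member higher and 3 lower. Over all genes the crossed pairing gave 1530 higher and 2067 lower. Log2 fold changes near 0 changed sign: ADR1-L2 had 0.024 and PR5 0.14 with total count scaling, and with a library left out ADR1-L2 ranged from -0.43 to 0.025, PR5 from -0.26 to 0.098 and AT5G66900 from -0.0012 to 0.18. PBS3, UGT74F1 and UGT76B1 gave no value with the stricter filter of 50 counts. The cause of these changes was not tested. Every run with a library left out holds fewer libraries, whichever group the library came from. Depth limits PBS3 and SARD1, with 13 to 67 counts per library.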

Other observations

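Genes of the pathway lists were more uneven between the WT libraries than between the line 5 libraries, as were all genes tested. Of the 63 tested, 10 differed more than 2-fold within WT and 2 within line 5, or 15.9% and 3.17%. Over all genes tested these shares were 6.48% and 2.46%, so that within line 5 was near the background. None of the 10 salicylic acid genes differed more than 2-fold in either group. NAC019 (AT1G52890), a NAC factor reported to repress ICS1, had 19.9 and 2.77 CPM in WT and 3.37 and 5.98 CPM in line 5. The defence regulator WRKY70 (AT3G56400) had 10.3 and 26.2 CPM in WT and 7.44 and 7.22 CPM in line 5, so the WT library that was higher differed between these genes. Neither was called by edgeR, and DESeq2 called WRKY70 (adjusted p = 0.0107). Both were named after their values were seen.

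By the root mean square difference of centred log2 CPM over the 4 libraries, the pathway gene nearest to NPR1 was SR1 (0.0671) and the next TGA7 (0.0930), among 63 compared. Nearest to EDS1 were EMB1144 (0.0554) and WRKY53 (0.0892), nearest to ICS1 were NDR1 (0.133) and AT5G62570 (0.138), and nearest to CBP60G were TGA7 (0.0997) and AT5G66910 (0.102). With 4 libraries these are descriptions only.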
